A study of Homo sapiens with 6 samples.

Results

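The genes described here are 10 components of insulin-like growth factor (IGF) signalling: the ligand IGF2, the receptors IGF1R, INSR and IGF2R, the docking proteins IRS1 and IRS2, the binding proteins IGFBP2, IGFBP4 and IGFBP5, and the mRNA-binding protein IGF2BP1. They were picked by gene name from 60612 genes in a table of FPKM, fragments per kilobase of gene length and per 1000000 assigned fragments. The cells were SH-SY5Y, an established human neuroblastoma line. Cells of 3 libraries had been infected with a vector for overexpression, per their label, of the noncoding transcript CDKN2B-AS1 from chromosome 9, and those of 3 others with a stuffer control vector. The labels do not tie replicate libraries to independent cultures, and the replicate spread behind each p-value may therefore be technical. The table's column names carry LVx2 for the labelled overexpression libraries and LVx1 for the control vector libraries. A handling difference marked by these unexplained tags cannot be told apart from the vector itself.

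IGF2 and its relative IGF1 act through IGF1R, a receptor tyrosine kinase closely related to the insulin receptor INSR, with which it can pair in hybrid receptors. Activated receptors phosphorylate IRS1 and IRS2, which recruit PI3-kinase and so switch on AKT and mTOR and hold FOXO transcription factors out of the nucleus. IGF2R, the mannose 6-phosphate receptor, has no kinase and carries IGF2 to lysosomes, while secreted IGFBPs hold IGFs outside the cell until proteases release them. In neuroblastoma cells this pathway is known for supporting growth and survival.

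The libraries held 20466583 to 48996425 fragments under the overexpression label and 29048596 to 45102020 with the control vector, recovered from the FPKM steps. CDKN2B-AS1 itself was 0.338, 0.304 and 0.353 FPKM in labelled overexpression libraries 1, 2 and 3, against 0.272, 0.288 and 0.191 FPKM in control vector libraries 1, 2 and 3. All 3 labelled overexpression values lay above all 3 control vector values, with a ratio of the means of 1.33 and p = 0.1 in an exact two-sided permutation test, the smallest that 3 against 3 allows. Since the targeted RNA differed so little, groups are named by their labels. Adrenergic neuroblastoma markers summed to 1355 to 1464 FPKM in the labelled overexpression libraries and 1273 to 1429 FPKM in the control vector libraries, with DBH, the enzyme that makes noradrenaline, at 488.8 FPKM or more. TH, the first enzyme of the same pathway, was at or near 0 in every library, with at most 0.29972 FPKM. The sum hides single markers, of which 12 were in the test described below and 0 passed. All labelled overexpression values lay above all control vector values for 2 of them, GATA2 and GATA3, and below for 1, STMN2. Over all tested genes these shares were 14.2% and 9.9%.

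The transcripts of the IGF pathway were at low to moderate levels, with binding proteins at the top and IRS1 and IGF2BP1 at the bottom. By mean FPKM over the 6 libraries, which is a level per length, IGFBP4 led with 13.7, followed by IGFBP2 with 4.16, IRS2 with 3.50, IGF1R with 2.09, IGFBP5 with 1.96, IGF2R with 1.17, INSR with 0.762, IGF2 with 0.729, IRS1 with 0.0514 and IGF2BP1 with 0.0131. IGFBP4 was above IGFBP2 in all 6 libraries, and its lowest value of 9.49 FPKM exceeded the highest of IGFBP2, 4.60 FPKM. IGFBP5 was likewise above IGF2R in each library, and IGF2 above IRS1. IGF1R and IGFBP5 were not separable, since each led in 3 of 6 libraries, and the same held for INSR and IGF2. The remaining neighbours kept their order in 5 or 6 libraries, but their ranges over libraries overlapped.

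None of the 10 genes passed the test between the groups. Genes with at least 1 FPKM in at least 3 libraries were tested with limma-trend on log2(FPKM + 0.5), and Benjamini-Hochberg adjusted p-values under 0.05 counted as calls. Over all 13984 tested genes, 1.14% were called. Higher under the overexpression label were 0.529% (74 genes) and lower 0.608% (85 genes). These counts were 181 higher and 52 lower when libraries were rescaled to a common FPKM total, 59 and 119 with median-of-ratios factors. Of the 10 IGF genes, 6 reached the filter and 0 of them were called, with 1 at an unadjusted limma-trend p under 0.05, as were 17.7% of all tested genes. The listed values of IGF2, INSR, IRS1 and IGF2BP1 were below the filter, and these genes were fitted beside the tested genes. That of IGF2 is a divided value, as described below. The count of calls among the IGF genes was 0 in each of the 17 alternative analyses, limma-voom on recovered fragments included. That count was bound to be 0 in the fits that called 0 genes over the whole table. Those were the fits without a filter, without the variance trend, without labelled overexpression library 1, 2 or 3 and without control vector library 2. Only the fit without a filter gave IGF2, INSR, IRS1 and IGF2BP1 an adjusted p. The groups did not overlap for 1 of the 6 tested genes, IRS2, while 24.1% of all tested genes showed such separation, 14.2% with the labelled overexpression libraries above and 9.9% with them below.

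**Figure D1:**
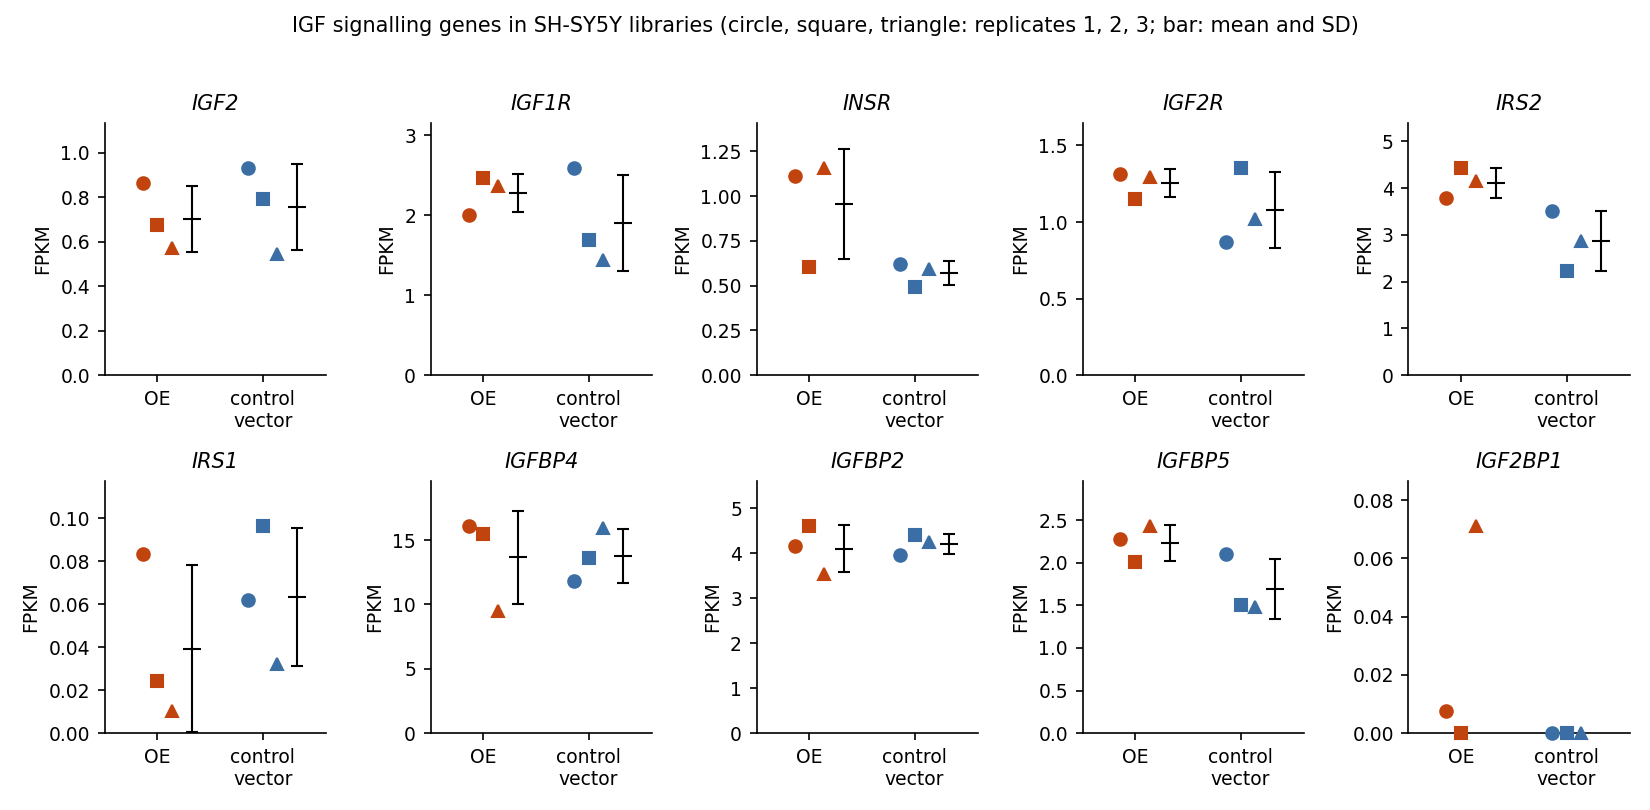
FPKM of the 10 IGF signalling genes in each library, labelled overexpression (OE) left and control vector right. Circles, squares and triangles are replicates 1, 2 and 3, bars give the mean and SD (n = 3), drawn for all but IGF2BP1. Each panel has its own axis from 0. The groups are separate for IRS2, with at least 3.78 against at most 3.52 FPKM, and overlap for the other 9 genes.

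IGF2, an imprinted growth factor of fetal tissue, was the only ligand of the pathway with signal. It stood at 0.862, 0.676 and 0.571 FPKM in labelled overexpression libraries 1, 2 and 3, and at 0.929, 0.792 and 0.545 FPKM in control vector libraries 1, 2 and 3. The groups covered nearly the same range, with means of 0.703 ± 0.148 and 0.755 ± 0.194 FPKM (SD, n = 3 each), and the exact two-sided permutation test gave p = 0.8. IGF1 and INS, the other ligands, were listed at 0 in all 6 libraries.

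The IGF2 value is a divided one. Its place in the order of levels and below the filter is that of the divided value, not of the locus. IGF2 (ENSG00000167244, GRCh38 chromosome 11, 2129112 to 2141238, minus strand) shares 4424 of its 6259 exon bases with RP11-889I17.2, a gene on the same strand annotated as protein-coding, and shorter stretches with AC132217.4 and INS-IGF2, a readthrough transcript that joins the insulin gene to IGF2. IGF2 and RP11-889I17.2 held the same number of fragments in 4 of 6 libraries, and differed by at most 1.0 fragment, which is the pattern of fragments divided evenly between overlapping genes. Summed over these 4 genes, the locus had 13.8, 11.1 and 9.26 fragments per 1000000 in labelled overexpression libraries 1, 2 and 3, against 14.9, 12.5 and 8.98 in control vector libraries 1, 2 and 3. The sum averaged 11.4 ± 2.29 under the overexpression label and 12.1 ± 2.99 with the control vector (SD, n = 3 each), a difference smaller than either spread.

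Of the 4 genes INS-IGF2 alone had a higher mean under the overexpression label. Its level was 0.650, 0.506 and 0.531 FPKM in labelled overexpression libraries 1, 2 and 3, and 0.317, 0.239 and 0.261 FPKM in control vector libraries 1, 2 and 3, so the groups did not overlap. INS-IGF2 rested on 12.67 to 47.50 fragments per library and lay below the filter. Its depth-scaled fragment sums stood at a ratio of 2.03, for which counting error alone allowed 1.46 to 2.86 (95%, exact binomial), and the exact two-sided permutation p of the FPKM values was 0.1. That interval took rounded sums of divided fragments as whole counts, so it is only approximate. INS, with which INS-IGF2 shares its first exons, and MIR483, the microRNA gene within IGF2, were listed at 0. H19, the imprinted noncoding gene next to IGF2, stayed at or below 0.306 FPKM.

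**Figure D2:**
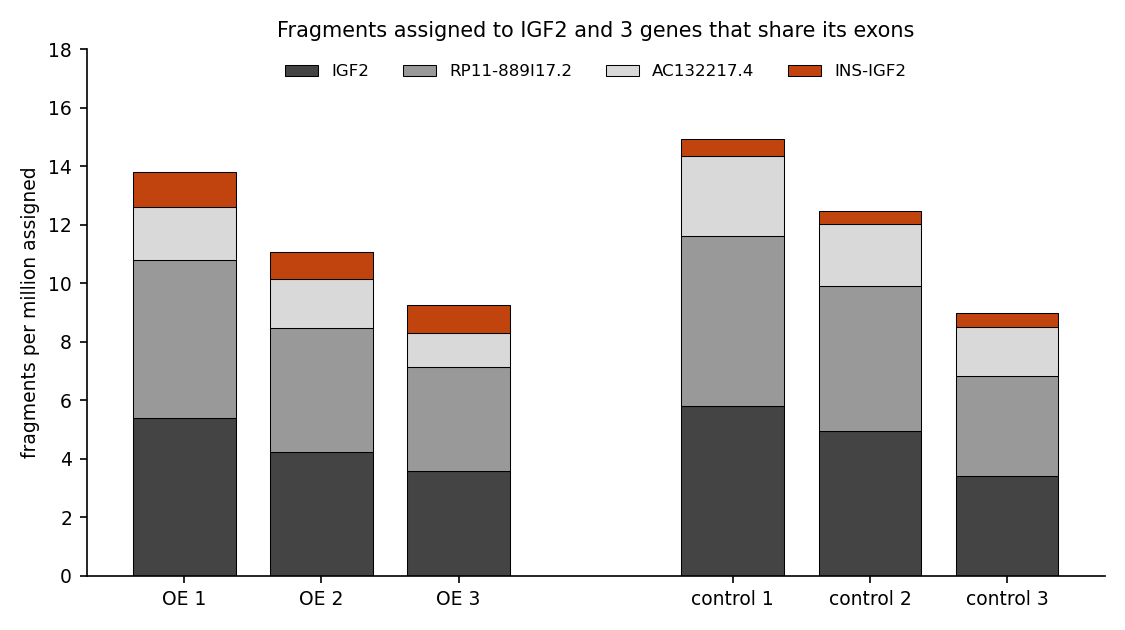
Fragments per 1000000 assigned fragments for IGF2 and 3 genes that share its exons, stacked, in each labelled overexpression (OE) and control vector library. The bars reach 9.26 to 13.8 in labelled overexpression and 8.98 to 14.9 in control vector libraries, and the IGF2 and RP11-889I17.2 segments are of nearly equal size.

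By the root mean square difference of centred log2(FPKM + 0.5) values over the 6 libraries, the tested genes whose profile was most like that of IGF2 were CWC27 at 0.0248, G6PC3 at 0.0394 and VPS37C at 0.0428 log2 units. Their levels differed widely, with G6PC3 at 42.1 FPKM or more and VPS37C at 1.73 to 2.66 FPKM. The IGF2 values were the divided ones, and adding 0.5 narrowed their spread more than that of higher genes. Some of the 13984 tested genes must be closest, so the likeness is a description and not a test.

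Among the receptors, IGF1R (ENSG00000140443, chromosome 15, 98648539 to 98964530, plus strand) was 2.00, 2.46 and 2.36 FPKM in labelled overexpression libraries 1, 2 and 3, against 2.59, 1.68 and 1.44 FPKM in control vector libraries 1, 2 and 3. Control vector library 1 was the highest of all 6, so the groups overlapped. On the log2 scale the difference was 0.23, with a 95% interval of -0.31 to 0.77 (limma-trend, Benjamini-Hochberg adjusted p = 0.656). Without control vector library 1 it was 0.43, again without a call (adjusted p = 0.403).

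INSR (ENSG00000171105, chromosome 19, 7112255 to 7294414, minus strand) was 1.11, 0.604 and 1.16 FPKM in labelled overexpression libraries 1, 2 and 3, against 0.620, 0.493 and 0.591 FPKM in control vector libraries 1, 2 and 3. Labelled overexpression library 2 fell within the control vector range, while libraries 1 and 3 were above it. The ratio of means was 1.68 and the exact two-sided permutation p was 0.2. The log2 fold change was 0.43 (SE 0.28) on log2(FPKM + 0.5). It was 0.73 (SE 0.30, unadjusted p = 0.0369) with limma-voom on recovered fragments, which adds a prior count to fragments in place of 0.5 FPKM. Without labelled overexpression library 2, the limma-trend value was 0.61.

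IGF2R (ENSG00000197081, chromosome 6, 159969082 to 160113507, plus strand) had 1.32, 1.15 and 1.296 FPKM in labelled overexpression libraries 1, 2 and 3, and 0.867, 1.35 and 1.02 FPKM in control vector libraries 1, 2 and 3. Its highest value was in control vector library 2, and the log2 fold change was 0.16, with a 95% interval of -0.39 to 0.71 (limma-trend, adjusted p = 0.777). AIRN, the antisense RNA within IGF2R that silences it in mice, was listed at 0 in all libraries. Within a library, IGF1R exceeded INSR by 1.81 to 4.08 times in labelled overexpression and 2.44 to 4.17 times in control vector libraries, ranges that overlapped. INSRR, the insulin receptor-related kinase, had 1.15, 1.04 and 1.08 FPKM under the overexpression label and 0.861, 0.794 and 0.924 FPKM with the control vector. INSRR entered the test only through the labelled overexpression libraries, so its separation was favoured by the filter (limma-trend, adjusted p = 0.660).

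IRS2 (ENSG00000185950, chromosome 13, 109752695 to 109786583, minus strand), a docking protein whose own transcription is known to be raised by FOXO factors when insulin signalling is low, had the largest fold change of the 6 tested genes in the limma-trend fit. Its promoter is shown because IRS2 was the one tested gene of the family with separate groups and because its window holds a TGTTTTG element, the type of insulin response sequence to which FOXO factors are known to bind. These 250 bases before the start are those of RefSeq, GRCh38.p14, chr13:109786584-109786833, minus strand, written 5′ to 3′, with the element in capitals:
IRS2 promoter: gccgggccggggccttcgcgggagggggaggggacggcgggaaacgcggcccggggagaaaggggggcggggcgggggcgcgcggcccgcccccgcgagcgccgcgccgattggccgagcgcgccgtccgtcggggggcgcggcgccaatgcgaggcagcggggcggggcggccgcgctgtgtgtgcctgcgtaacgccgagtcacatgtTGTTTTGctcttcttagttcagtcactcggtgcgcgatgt
The element lies 40 to 34 bases before the start. TGTTTTG was searched on both strands, as CAAAACA on the other. Of 35116 RefSeq promoter windows of this length, 4.30% held it, and of the 10 windows found for 8 of the IGF genes 1 did, that of IRS2. The match is a description of these letters and not a measured binding site.

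The level of IRS2 was 3.78, 4.42 and 4.14 FPKM in labelled overexpression libraries 1, 2 and 3, against 3.52, 2.24 and 2.87 FPKM in control vector libraries 1, 2 and 3. All 3 labelled overexpression libraries were above all 3 control vector libraries, by a narrow margin at control vector library 1. IRS2 averaged 4.12 ± 0.319 FPKM under the overexpression label and 2.88 ± 0.641 FPKM with the control vector (SD, n = 3 each), and the means had a ratio of 1.43. Its log2 fold change was 0.47, with a 95% interval of 0.01 to 0.92, an unadjusted p of 0.0458 and an adjusted p of 0.273 (limma-trend, Benjamini-Hochberg), so the difference did not pass. It stayed between 0.32 and 0.60 in the 17 alternative analyses, with adjusted p from 0.179 to 0.542.

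IRS1, the other docking protein, was close to the detection limit, at 0.0834, 0.0244 and 0.0102 FPKM in labelled overexpression libraries 1, 2 and 3 and 0.0620, 0.0962 and 0.0322 FPKM in control vector libraries 1, 2 and 3. These values stood for 23, 5 and 5 fragments and for 28, 28 and 14 fragments. The ratio of depth-scaled sums was 0.571, and counting error alone allowed 0.366 to 0.876 (95%, exact binomial), but labelled overexpression library 1 lay within the control vector range and the exact two-sided permutation p was 0.4. With limma-voom on recovered fragments the log2 fold change of IRS1 was -1.08 (SE 0.72, unadjusted p = 0.169). IRS2 exceeded IRS1 in every library, by at least 23.3 times. IRS4, a further family member, was listed at 0 throughout.

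IGFBP4 (ENSG00000141753, chromosome 17, 40443450 to 40457725, plus strand), a binding protein that blocks IGF action until the protease PAPPA cuts it, was the most abundant of the 10 transcripts. It was 16.1, 15.4 and 9.49 FPKM in labelled overexpression libraries 1, 2 and 3, against 11.8, 13.6 and 15.9 FPKM in control vector libraries 1, 2 and 3. Labelled overexpression library 3 was the lowest of the 6, and library 1 of the same group the highest. IGFBP4 averaged 13.7 ± 3.63 FPKM under the overexpression label and 13.8 ± 2.07 FPKM with the control vector (SD, n = 3 each), and the log2 fold change was -0.04, with a 95% interval of -0.50 to 0.43 (limma-trend, adjusted p = 0.948). Without labelled overexpression library 3 it was 0.20, so its sign rested on single libraries.

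IGFBP2 and IGFBP5 are neighbours on chromosome 2 that point at each other, with 7669 bases between their ends. IGFBP2 (ENSG00000115457, 216632828 to 216664436, plus strand) was 4.15, 4.60 and 3.55 FPKM in labelled overexpression libraries 1, 2 and 3, against 3.97, 4.41 and 4.26 FPKM in control vector libraries 1, 2 and 3. The groups overlapped, with a log2 fold change of -0.04 and a 95% interval of -0.44 to 0.35 (limma-trend, adjusted p = 0.929). IGFBP5 (ENSG00000115461, 216672105 to 216695549, minus strand), which binds matrix as well as IGFs, was 2.27, 2.01 and 2.43 FPKM in labelled overexpression libraries 1, 2 and 3, against 2.102, 1.499 and 1.48 FPKM in control vector libraries 1, 2 and 3. Control vector library 1 was above labelled overexpression library 2, so the groups overlapped. IGFBP5 had a log2 fold change of 0.33, with a 95% interval of -0.17 to 0.82 (limma-trend, adjusted p = 0.477). The noncoding AC007563.5 shares 298 exon bases with IGFBP5 on the other strand, and whether strand was used in counting is not given, so their fragments could not be separated. Its level was 0.623, 0.405 and 0.350 FPKM under the overexpression label and 0.319, 0.248 and 0.178 FPKM with the control vector.

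**Figure D3:**
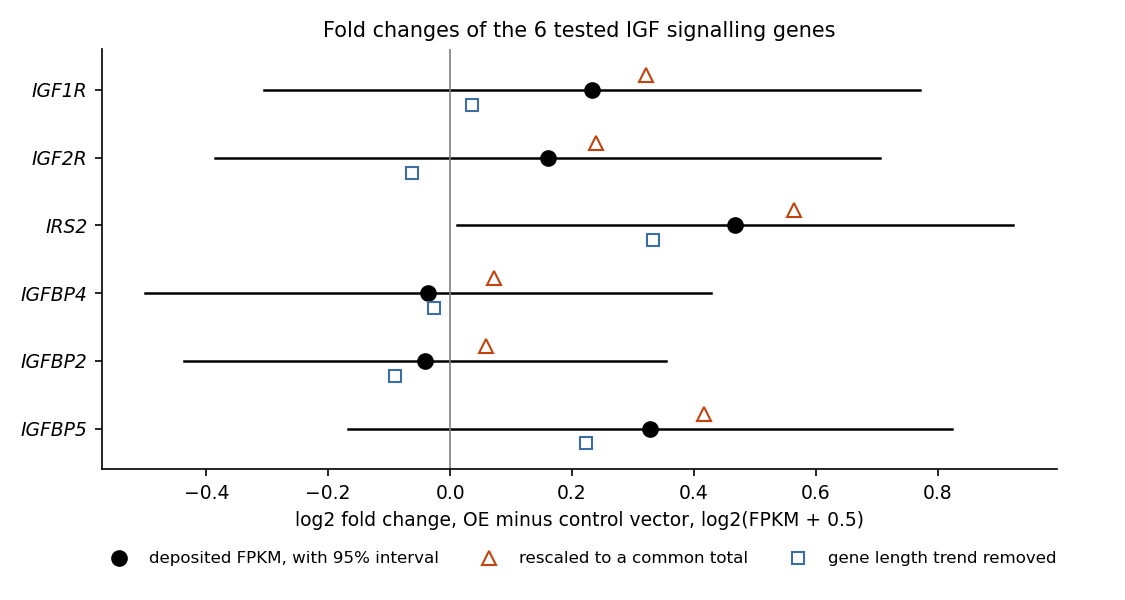
Log2 fold changes, labelled overexpression (OE) minus control vector, of the 6 tested IGF genes. Filled circles with lines are the limma-trend value and its 95% interval, triangles the value after rescaling to a common FPKM total, and squares the value after removal of the gene length trend. The interval of IRS2 runs from 0.01 to 0.92, and the other 5 include 0.

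IGF2BP1, an oncofetal protein that binds IGF2 mRNA among others, was near or below detection. Labelled overexpression libraries 1, 2 and 3 had 2, 0 and 33.50 fragments, or 0.00754, 0 and 0.0710 FPKM, so the signal rested on library 3. The 3 control vector libraries were listed at 0, which allows up to 0.0107 FPKM (3 fragments per library). The limma-voom log2 fold change of IGF2BP1 was 3.46 (unadjusted p = 0.0181), a value that depends on the prior count added to the zeros. IGF2BP2, its paralogue, was listed at 0 in all 6. IGF2BP3, the third paralogue, was the paralogue with signal in every library, at 5.85, 5.16 and 4.98 FPKM under the overexpression label against 3.92, 5.21 and 4.81 FPKM with the control vector. The log2 fold change of IGF2BP3 was 0.19 (limma-trend, adjusted p = 0.624).

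Other binding protein genes outside the 10 were also measured. IGFBPL1, a binding protein-like gene, was 103, 103 and 106 FPKM in labelled overexpression libraries 1, 2 and 3 and 114, 93.6 and 95.7 FPKM in control vector libraries 1, 2 and 3, several times the level of IGFBP4. IGFBP3, the main carrier of IGFs in serum, was 16.9, 17.1 and 14.4 FPKM in labelled overexpression libraries 1, 2 and 3, against 4.55, 12.5 and 12.3 FPKM in control vector libraries 1, 2 and 3. The groups did not overlap, but control vector library 1 was far below the other controls. The log2 fold change of IGFBP3 was 0.81 (limma-trend, adjusted p = 0.230), and 0.36 without control vector library 1. IGFBP6 overlapped between groups (log2 fold change 0.08), and IGFBP1 was listed at 0. In this list of 8 other ligands, receptors and binders, 4 were tested and 0 passed.

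Of 50 tested genes in the 6 lists of the wider pathway 1 passed, a share near the 1.14% of all tested genes, so this count is no result about the pathway. At an unadjusted limma-trend p under 0.05 were 15 of the 50, against 17.7% of all tested genes. Groups were separate for 13 with the labelled overexpression libraries above and 5 below, against 14.2% and 9.9%. The lists were chosen with earlier results of these data known, so these shares are no test. The gene that passed was ADAM12, a protease known to cut IGFBP3 and IGFBP5. ADAM12 (ENSG00000148848, chromosome 10, 126012381 to 126388477, minus strand) was 12.5, 12.6 and 12.5 FPKM in labelled overexpression libraries 1, 2 and 3, against 6.78, 5.93 and 7.16 FPKM in control vector libraries 1, 2 and 3. Each labelled overexpression library was well above each control vector library, and the ratio of means was 1.90. The log2 fold change was 0.88 (SE 0.14, limma-trend, Benjamini-Hochberg adjusted p = 0.0332). It ranged from 0.72 to 0.98 in the alternatives, but the call was lost in 7 of 17. Those were the fits without a filter (adjusted p = 0.117), without the variance trend (adjusted p = 0.130), without labelled overexpression libraries 1, 2 and 3 in turn (adjusted p = 0.130, 0.140 and 0.0877) and without control vector libraries 1 and 2 (adjusted p = 0.0907 and 0.0820). Over the whole table, the fit without control vector library 1 called 3 genes and the others of these fits called 0. The lost calls are thus not particular to ADAM12. Of the 8 genes of IGFBP processing, STC2, a stanniocalcin that inhibits PAPPA, was the other gene tested, with -0.25 (limma-trend, adjusted p = 0.661), and -0.02 without labelled overexpression library 1. PAPPA itself, added after its values were seen, lay below the filter at 0.151, 0.264 and 0.137 FPKM under the overexpression label and 0.0689, 0.00297 and 0.0676 FPKM with the control vector.

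In the signalling machinery below the receptors, 0 of the tested genes passed. Of 19 adaptors and receptor regulators 9 were tested, with a median log2 fold change of 0.19, and of 27 PI3K, AKT and mTOR genes 21 were tested, with a median of 0.15. The median over all tested genes was 0.05. SOCS3, a feedback inhibitor that targets IRS proteins, was 2.62, 1.48 and 3.27 FPKM under the overexpression label and 5.52, 4.70 and 4.63 FPKM with the control vector, separate groups with a log2 fold change of -0.93 (limma-trend, adjusted p = 0.112). PTPN1, a phosphatase of the insulin receptor, had 0.37, PTPN11, the phosphatase SHP2, had 0.34, and RACK1, a scaffold and ribosomal protein, had -0.24. Without control vector library 2, PTPN1 and PTPN11 were both at 0.16. PIK3R3, a regulatory subunit of PI3-kinase, had 0.50 (0.30 without control vector library 2), RPS6KB1, the S6 kinase, had 0.60, MLST8, a subunit of mTOR complexes, had -0.35, and EIF4EBP1, a translation repressor under mTOR, had -0.21.

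Among FOXO factors and transcripts known to be raised by them, 8 of 15 were tested and 0 passed, with a median log2 fold change of -0.05. FOXO3, a FOXO factor held in the cytoplasm by AKT, was 7.95, 6.84 and 7.80 FPKM in labelled overexpression libraries 1, 2 and 3, against 3.42, 3.77 and 5.04 FPKM in control vector libraries 1, 2 and 3. The groups were separate, with a ratio of means of 1.85 and a log2 fold change of 0.82 (SE 0.18, limma-trend, adjusted p = 0.0672). FOXO3 passed after rescaling to a common total (adjusted p = 0.0446), with array weights (adjusted p = 0.0362) and without control vector library 3 (adjusted p = 0.0467). In the other 14 of 17 alternatives FOXO3 did not pass, with limma adjusted p up to 0.236. Some of these alternatives called 0 genes over the whole table. With the length trend removed its value was 0.70 (adjusted p = 0.103). The other named genes of the list did not share a direction. SESN1, a stress-induced regulator of mTOR, had -0.43 and TXNIP, a thioredoxin-binding protein, had -0.48. TRIB1, a pseudokinase, had 0.85, and it entered the test only through the labelled overexpression libraries. Its value depended on the pseudocount, with 1.34 at a pseudocount of 0.1, 0.59 at a pseudocount of 1 and 1.61 with limma-voom (adjusted p = 0.0795). Of 16 genes of the IGF2 locus and of IGF2 mRNA handling 6 were tested and 0 passed. CTCF, the insulator protein of the IGF2 and H19 domain, had 0.56, ELAVL1, an mRNA-stabilising protein, 0.59, and LIN28B, which blocks the let-7 microRNAs, 0.21.

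**Figure D4:**
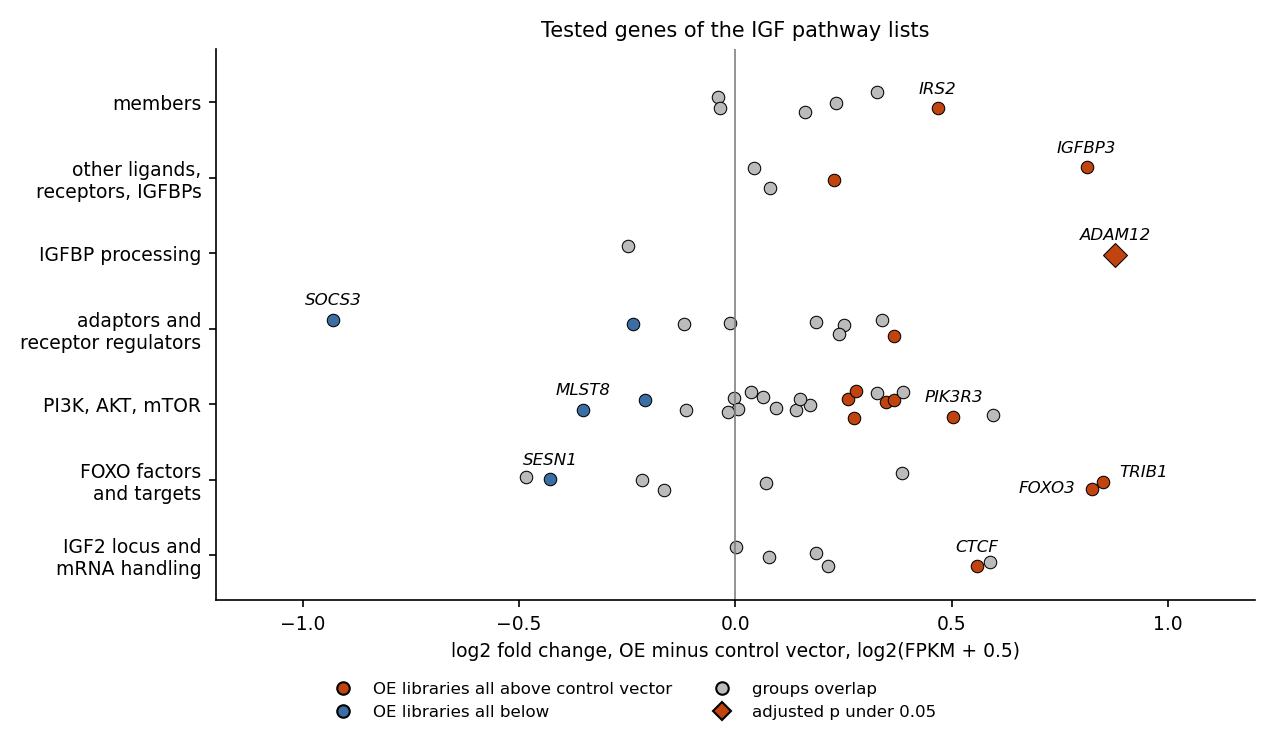
Log2 fold changes, labelled overexpression (OE) minus control vector, of tested genes in the family and in 6 pathway lists. Red points have all 3 labelled overexpression libraries above the control vector libraries, blue points all 3 below, grey points overlap, and the diamond passed the test. ADAM12 at 0.88 is the single diamond among 50 tested genes outside the family.

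Gene length moved with these values. The median log2 fold change of the 6 tested IGF genes was 0.20, against 0.05 over all tested genes, and IGF1R and IGF2R have table lengths of 13941 and 22613 bases against a median of 3829 in tested genes. With the trend of expression with gene length removed from each library, the medians were 0.004 and 0.006, IGF1R was at 0.04, IGF2R at -0.06 and IRS2 at 0.33. Mesenchymal neuroblastoma markers summed to 11.5 to 14.2 FPKM in labelled overexpression and 7.14 to 11.9 FPKM in control vector libraries, with PRRX1 at 0 in all. The 3 tested mesenchymal markers FN1, SNAI2 and NOTCH2 had log2 fold changes of 0.53, 0.46 and 0.31, all positive with overlapping groups and 0 past the threshold. The untested mesenchymal markers went both ways. YAP1 had 6, 30.50 and 65.50 fragments in labelled overexpression libraries 1, 2 and 3 and was listed at 0 in all control vector libraries. Depth-scaled fragment sums, labelled overexpression over control vector, had ratios of 4.18 for WWTR1 and 1.34 for TNFRSF1A. Lower ratios were those of CD44 (0.637), TGFBI (0.401) and SOX9 (0.496). AXL had 0 fragments in each labelled overexpression library, against 52, 0 and 1 in control vector libraries 1, 2 and 3. Its difference thus rested on 1 library. The SOX9 ratio rested on 9 against 22 fragments. Groups overlapped for WWTR1, TNFRSF1A, CD44, TGFBI, SOX9 and AXL. Fibroblast markers summed to 53.4 to 62.6 and 51.6 to 65.0 FPKM, with 0 of 6 tested past the threshold, and Schwann and glial markers to 3.29 to 3.61 and 3.19 to 6.82 FPKM, most of it S100B. Their part in the IGF gene values was not tested. In such bulk libraries, fewer cells that express a gene and less RNA per cell cannot be told apart.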

How the data were processed

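RNA of 6 SH-SY5Y libraries was measured. Libraries were SMART-seq with paired-end reads, per the labels' protocols. GRCh38.p13, hg38, featureCounts 2.0.1 and STAR 2.7.9 appear in the submitters' processing notes, while counting options are not given in the sources used here. The authors deposited FPKM per gene, with gene lengths and positions. FPKM times length in kilobases summed to 1000000 per library, and the values were steps of a hundredth of a fragment in all libraries, so depth was recovered and fragments hold fractions, as arise where overlapping genes share them. Intervals on fragments cover counting error only.

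Log2(FPKM + 0.5) of the 13984 genes with at least 1 FPKM in at least 3 libraries was tested with limma 3.58.1 (trend, no block) in R 4.3.3, with Benjamini-Hochberg adjustment at 0.05 and permutation tests in scipy 1.17.1. The fit was also run on simulated data with independent normal noise and changes set only in higher-level genes. That run does not gauge the fit for IGF genes at low levels, and no result here rests on it. Genes and lists were chosen with earlier results of these data known. Named were the 10 genes, some of the genes overlapping them, and in each pathway list those called and up to 4 of smallest p. Genes outside these rules, such as family members, IGF2 locus genes, genes with a profile like that of IGF2 and markers, were named as well. No protein sequences were used here, so the planned comparison of IGFBP proteins was not made. Same-numbered libraries deviated together at r of -0.024, 0.105 and 0.119, and differently numbered ones at -0.182 to 0.102. Whether the numbers pair the libraries cannot be told from these values. Alternatives changed pseudocount, filter, variance model, scaling, weights, length trend, test and libraries.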

Additional observations from a re-analysis of the deposited data

How the results depend on the processing

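The count of IGF genes past the threshold was 0 in all 17 alternatives, some of which called 0 genes over the whole table. Over all genes the main count of 159 was 0 without a filter and 0 without the variance trend (3538 and 2304 genes at an unadjusted limma p under 0.05), 269 with at least 1 FPKM in all libraries, 265 with array weights, and 0 to 124 with any 1 library left out. It was 0 without labelled overexpression library 1, 2 or 3 (1734, 1665 and 2109 genes at an unadjusted limma p under 0.05) and without control vector library 2 (2304 genes), and 3 without control vector library 1. With the replicate number as a block it was 229 (98 higher, 131 lower) and the call changed for none of the 6 tested IGF genes or the pathway genes named with a log2 fold change and refitted with the block. Rescaling to a common total moved the median log2 fold change of all genes to 0.15, and gave 0.0585 for IGFBP2 and 0.0713 for IGFBP4, whose signs turned, as did that of IGF2 (0.0083). IGFBP4 was 0.12 with array weights, IGF2R -0.0633 and IGF2BP1 -0.0878 without the length trend, and IGFBPL1 -0.0026 with median-of-ratios factors. With any 1 library left out, the log2 fold change ran from -0.18 to 0.0425 for IGF2, 0.09 to 0.43 for IGF1R, 0.06 to 0.28 for IGF2R, -0.12 to 0.0481 for IGFBP2, -0.17 to 0.20 for IGFBP4, -0.0085 to 0.13 for IGFBPL1, -0.15 to 0.31 for IGFBP6 and -0.0762 to 0.65 for LIN28B. The cause was not tested. IRS1 and IGF2BP1 rested on at most 33.50 fragments per library.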
